A study of Mus musculus with 7 samples.

Results

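The transcripts encoded by the mitochondrial genome were measured in wild-type mouse hearts as the percent of a cell's unique molecular identifiers (UMIs, each standing for 1 captured transcript) that the authors counted on mitochondrial genes. The authors' mitochondrial gene set was used as it stands, and its percent was summarized as the median over the cells of each cell type, stage and heart zone with 10 or more cells. It was followed in 52802 wild-type cells, of 76801 cells in the whole series, and these gave 595 medians of a type in a sample. Cells above 30 percent had been removed by the authors, and the highest percent listed was 29.99, so every value below describes cells under that limit.

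The mouse mitochondrial genome holds 37 genes in the GENCODE annotation of GRCm38, of which 13 code for proteins, 22 for transfer RNAs and 2 for ribosomal RNAs. All 13 proteins are subunits of the respiratory chain or of the ATP synthase, with 7 in complex I (the mt-Nd genes), 1 in complex III (mt-Cytb, cytochrome b), 3 in complex IV (mt-Co1, mt-Co2 and mt-Co3) and 2 in the ATP synthase (mt-Atp6 and mt-Atp8). Both strands are transcribed as long precursors that are cut into shorter transcripts. Most of the protein-coding ones are polyadenylated, which lets a poly(A)-based method capture them. The remaining subunits of these complexes are encoded in the nucleus and are not part of the percent. Cardiomyocytes (CMs) are known for their many mitochondria, whose mass grows further as the heart turns to fatty acid oxidation after birth.

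The tables give the sum over the mitochondrial genes and the number of them detected in a cell, not the count of each gene. The highest number detected was 13, reached in 24947 cells. The shortest coding genes share bases with a neighbour at the 3′ end, and whether reads there can be told apart was not tested. The genes mt-Atp8 (chrM:7766-7969, plus strand) and mt-Nd4l (chrM:9877-10173, plus strand), both exonic and without an intron, each end inside the next gene. Their sequences in GRCm38 from GENCODE M21 are shown with the bases shared with mt-Atp6 (43 bases) and mt-Nd4 (7 bases) in capitals.
mt-Atp8: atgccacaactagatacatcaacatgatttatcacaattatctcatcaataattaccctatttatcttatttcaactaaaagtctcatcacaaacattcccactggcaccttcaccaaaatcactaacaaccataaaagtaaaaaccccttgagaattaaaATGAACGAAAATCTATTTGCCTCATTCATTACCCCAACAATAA
mt-Nd4l: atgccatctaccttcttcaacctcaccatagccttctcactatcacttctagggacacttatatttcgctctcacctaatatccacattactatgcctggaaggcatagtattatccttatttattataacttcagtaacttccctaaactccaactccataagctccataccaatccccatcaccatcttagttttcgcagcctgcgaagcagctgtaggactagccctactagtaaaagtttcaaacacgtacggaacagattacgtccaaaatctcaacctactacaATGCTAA

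Hearts of wild-type CD1 and C57BL/6 mice, with no treatment and no allele named, were split into 4 zones, the atria of the left (LA) and right (RA) side and the ventricles of the left (LV) and right (RV) side. The samples were stained with MULTI-seq barcodes, pooled and captured together by droplet single cell RNA-seq. The CD1 hearts were profiled in 3 experiments, with 13 stages from E9.5 to P3 (20114 cells in 52 samples and 5 wells), with E18 and P1 (4013 cells in 8 samples), and with 5 stages from P2 to P9 (3318 cells in 20 samples). The C57BL/6 hearts were profiled in 2 experiments, with 13 stages from E10.5 to P4 (21465 cells used in 52 samples and 4 wells) and with 4 stages from P5 to P9 (3892 cells in 16 samples). Median UMIs per cell ran from 5569.5 to 33431 between samples, and the samples held 9 to 5416 cells. A sample pooled several hearts, the LV samples held the septum and atrioventricular canal as well, and each strain had its own experiments, so strain and experiment cannot be told apart. Tests used the stage as the unit and measure the spread between stages, not between hearts.

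Some samples stood apart from their labels or from their neighbours. The ventricular CMs of CD1 at P2 came from atrial samples. Of the 35 ventricular CMs at P2 in the CD1 course of 13 stages, 26 were assigned to the LA, and of the 77 in the P2 to P9 experiment, 68 were assigned to atrial samples. Over all of its stages, 1.48% of the ventricular CMs of that CD1 course lay in atrial samples, and 0.996% in the C57BL/6 course of 13 stages. The atrial CM value of C57BL/6 at E13.5 came from 16 cells of the RV, and 66 of 412 atrial CMs of the C57BL/6 P5 to P9 experiment lay in ventricular samples. In C57BL/6 at E10.5, ventricular CMs had a median of 16.7% in the RV (43 cells) against 8.24% in the LV (152 cells). Between wells, 76 cell barcodes were shared in CD1 and 64 in C57BL/6, which covered 0.557% and 0.503% of the cells. No gene values were used, so the annotated types were not checked against markers here.

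CMs had the highest mitochondrial percent of all types followed over stages in both strains. In the CD1 E9.5 to P3 experiment the chamber CMs averaged 12.1% and the non-myocytes of the same samples, with blood cells not counted, 5.54%, a difference of 6.59 ± 4.41 percentage points (SD, n = 13 stages). The difference was above 0 at 13 of 13 stages (exact sign-flip permutation test, two-sided p = 0.000244, the smallest that 13 stages allow). In the C57BL/6 E10.5 to P4 experiment CMs averaged 11.8% and non-myocytes 4.71%, a difference of 7.14 ± 4.31 points (SD, n = 13) that was again above 0 at 13 of 13 stages (exact permutation p = 0.000244). On the log2 scale of the ratio of mitochondrial to other UMIs, CMs lay 1.198 above non-myocytes in CD1 and 1.45 above in C57BL/6. The smaller experiments gave differences of 7.55 points at the 2 stages E18 and P1, 11.8 ± 1.56 (SD, n = 5) from P2 to P9 in CD1 and 13.7 ± 0.849 (SD, n = 4) from P5 to P9 in C57BL/6, above 0 at every stage.

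**Figure D1:**
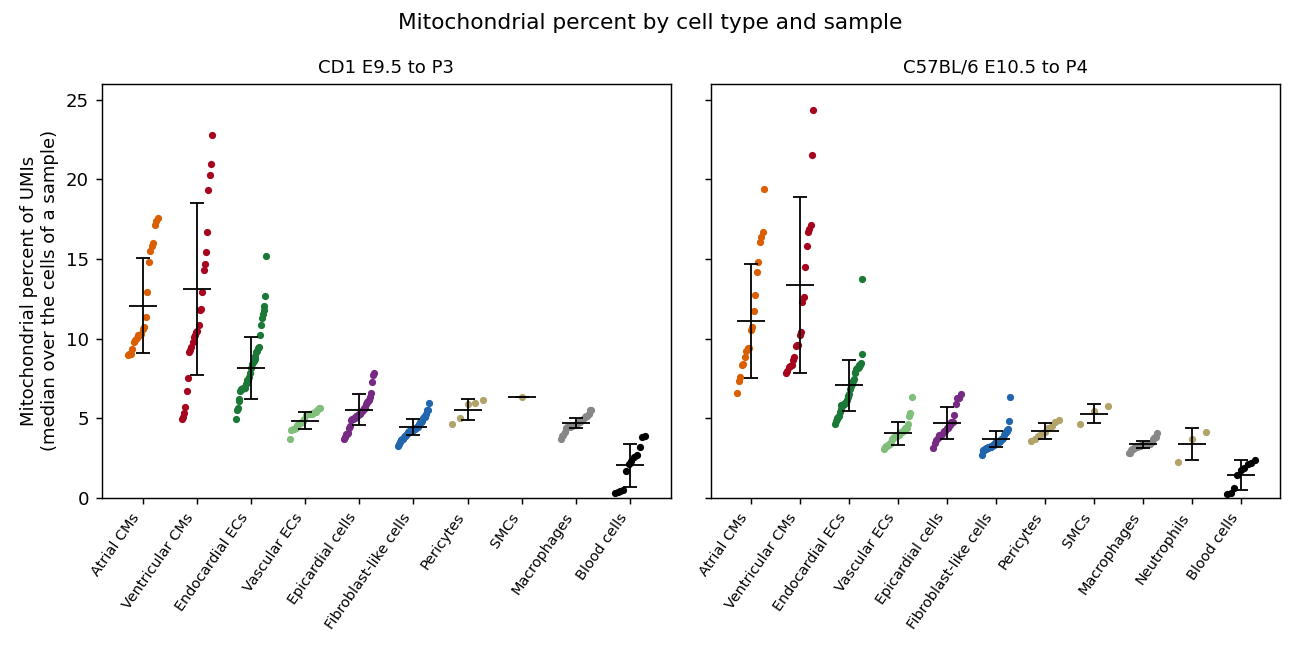
Each point is the median mitochondrial percent of UMIs over the cells of 1 type in 1 sample, for the CD1 E9.5 to P3 (left) and C57BL/6 E10.5 to P4 (right) experiments. Horizontal bars and whiskers give the mean ± SD of the stage values. Sample medians of ventricular CMs reach 22.8% in CD1 and 24.3% in C57BL/6, while those of blood cells stay under 4%.

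Every non-myocyte type that could be tested lay below the CMs of the same samples. All 5 types tested in CD1 and all 6 in C57BL/6 passed the exact sign-flip permutation test after Benjamini-Hochberg adjustment, and none lay above the CMs. Fibroblast-like cells, the matrix-producing stroma, minus CMs gave -8.85 ± 3.89 points in CD1 (SD, n = 11) and -8.17 ± 4.12 in C57BL/6 (n = 13). For vascular endothelial cells (ECs), which line the coronary vessels, the difference was -9.55 ± 4.99 points in CD1 (n = 10) and -8.54 ± 4.22 in C57BL/6 (n = 10). For macrophages, the resident phagocytes, it was -8.76 ± 3.11 in CD1 (n = 10) and -8.88 ± 3.82 in C57BL/6 (n = 11). These types lay below the CMs at every stage that held both. Epicardial cells, which cover the outer surface, differed by -6.53 ± 3.58 (n = 12) and -5.38 ± 3.27 points (n = 11), and the adjusted p of these exact permutation tests ran from 0.00146 to 0.00293. Pericytes, the mural cells of small vessels, had enough stages only in C57BL/6, where the difference was -8.96 ± 4.82 points (n = 7, exact permutation adjusted p = 0.0156).

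In the 2 experiments of 13 stages, endocardial ECs, the lining of the chambers, came closest to the CMs of the types tested. Their difference from CMs was -3.62 ± 4.33 points in CD1 (SD, n = 13, exact permutation adjusted p = 0.0103) and -4.97 ± 5.30 in C57BL/6 (n = 12, exact permutation adjusted p = 0.00996). At 2 of 13 stages in CD1 and 2 of 12 in C57BL/6 they lay above the CMs of their samples. At E13.5 in CD1 the endocardial ECs averaged 11.6% and the CMs of their samples 9.83%, with 15.2% in the LV (45 cells), 12.7% in the RV (54 cells) and 6.86% in the LA (21 cells). These endocardial ECs had fewer UMIs of both kinds, with 659 mitochondrial and 5365 other UMIs by the mean of sample medians. Atrial CMs had 1469 and 14018 at that stage and ventricular CMs 1666 and 14379. At E10.5 in C57BL/6 endocardial ECs averaged 10.8% against 8.31%, with 13.7% in the LV (21 cells) and 7.93% in the RA (10 cells). By P3 the order was far apart, at 6.26% against 16.7% in CD1 and 4.98% against 19.5% in C57BL/6. In the smaller experiments epicardial cells had values at only 2 stages in each, mostly from fewer zones than endocardial ECs and so set against other CMs. At these stages the differences of epicardial cells against those of endocardial ECs were -4.05 against -5.04 points at E18 and -7.49 against -8.86 at P1. From P2 to P9 in CD1 they were -10.42 against -9.34 at P2 and -10.66 against -10.15 at P4. In C57BL/6 they were -13.40 against -13.37 at P8 and -11.32 against -12.79 at P9.

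By the mean of the stage values, both strains had the CM types first, followed by endocardial ECs and epicardial cells. In CD1 the order ran from ventricular CMs (13.1 ± 5.38%, SD, n = 13 stages) over atrial CMs (12.1 ± 3.01%, n = 11), endocardial ECs (8.15 ± 1.94%, n = 13), epicardial cells (5.55 ± 0.992%, n = 12), vascular ECs (4.84 ± 0.547%, n = 10) and macrophages (4.72 ± 0.309%, n = 10) to fibroblast-like cells (4.45 ± 0.497%, n = 11). In C57BL/6 the means were 13.4 ± 5.52% (n = 11) for ventricular CMs, 11.1 ± 3.58% (n = 11) for atrial CMs, 7.07 ± 1.59% (n = 12) for endocardial ECs, 4.70 ± 0.983% (n = 11) for epicardial cells, 4.19 ± 0.487% (n = 8) for pericytes, 4.05 ± 0.712% (n = 11) for vascular ECs, 3.70 ± 0.498% (n = 13) for fibroblast-like cells and 3.35 ± 0.218% (n = 11) for macrophages. Neighbours in the order were compared at the stages that held both, a comparison chosen after the values were seen. In CD1 atrial CMs and endocardial ECs did not differ beyond the spread between stages (3.496 ± 4.54 points, n = 11, exact permutation adjusted p = 0.0557), nor did vascular ECs and macrophages (0.128 ± 0.772, n = 10, exact permutation adjusted p = 0.605) or macrophages and fibroblast-like cells (0.310 ± 0.669, n = 10, exact permutation adjusted p = 0.218). In C57BL/6 pericytes and vascular ECs (exact permutation adjusted p = 0.945) and fibroblast-like cells and macrophages (exact permutation adjusted p = 0.212) did not differ beyond that spread. The other 3 neighbouring pairs of CD1 and the other 5 of C57BL/6 passed.

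Cells annotated as blood lay below the CMs at every stage that held them. Red blood cells are known to clear their mitochondria as they mature. In CD1 their percent was 3.63% at E9.5 (81 cells), 2.44% at E10.5 (162 cells), 0.417% at E11.5 (115 cells) and 1.69% at P2 (13 cells). In C57BL/6 it was 2.23% at E10.5 (122 cells), 1.68% at E11.5 (101 cells) and 0.392% at E12.5 (59 cells). In both strains the last of these embryonic stages had the lowest level of any type in that experiment, and with 3 or 4 stages no test was made. Smooth muscle cells (SMCs), the contractile wall of larger vessels, had enough cells in few samples, with 6.35% at E17.5 in the CD1 course of 13 stages, 3.88% at E18 and 4.09% at P1 in the CD1 E18 and P1 experiment, and 4.63 to 5.79% at 3 stages in C57BL/6. In the CD1 P2 to P9 experiment they stood at 7.99% at P9 (16 cells). Neutrophils stood at 2.27 to 4.16% at 3 stages of C57BL/6.

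The mitochondrial percent of both CM types rose with stage in both strains. Ventricular CMs of CD1 ran from 5.25% at E9.5 over a median of 11.0% to 22.8% at P3 (Spearman's rho = 0.88, permutation adjusted p = 0.00175, Pearson's r = 0.84, permutation adjusted p = 0.00171, n = 13 stages). Atrial CMs of CD1 ran from 9.003% at E11.5 to 16.7% at P3 (rho = 0.85, permutation adjusted p = 0.00532, r = 0.88, permutation adjusted p = 0.00171, n = 11). In C57BL/6 ventricular CMs stood at 11.18% at E10.5 and 9.58% at E11.5, had their lowest value of 7.91% at E12.5 and reached 24.3% at P3 (rho = 0.80, permutation adjusted p = 0.00962, r = 0.85, permutation adjusted p = 0.00181, n = 11). Atrial CMs of C57BL/6 stood at 8.39% at E10.5 and 9.20% at E13.5, had their lowest value of 6.98% at E15.5 and reached 17.1% at P3 (rho = 0.85, permutation adjusted p = 0.00717, r = 0.87, permutation adjusted p = 0.00168, n = 11). When the first and the last stage were left out, being the 2 most distant from the middle of the course, r lay between 0.73 and 0.89 in these 4 relations. The CD1 ventricular CMs at P2, which came from the LA, stood out of the course at 10.49%, between 21.0% at P1 and 22.8% at P3, and without P2 the rho over the remaining 12 stages was 0.99. The P3 values of ventricular CMs rested on 1 zone each, with 43 cells in CD1 and 23 in C57BL/6. The paper reports vigorous pipetting of postnatal samples, varied digestion times and an added strainer for postnatal ventricles. It also describes neonatal ventricular CMs as too big for the capture device, with fewer sampled at late stages. Stage and this handling cannot be told apart here.

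**Figure D2:**
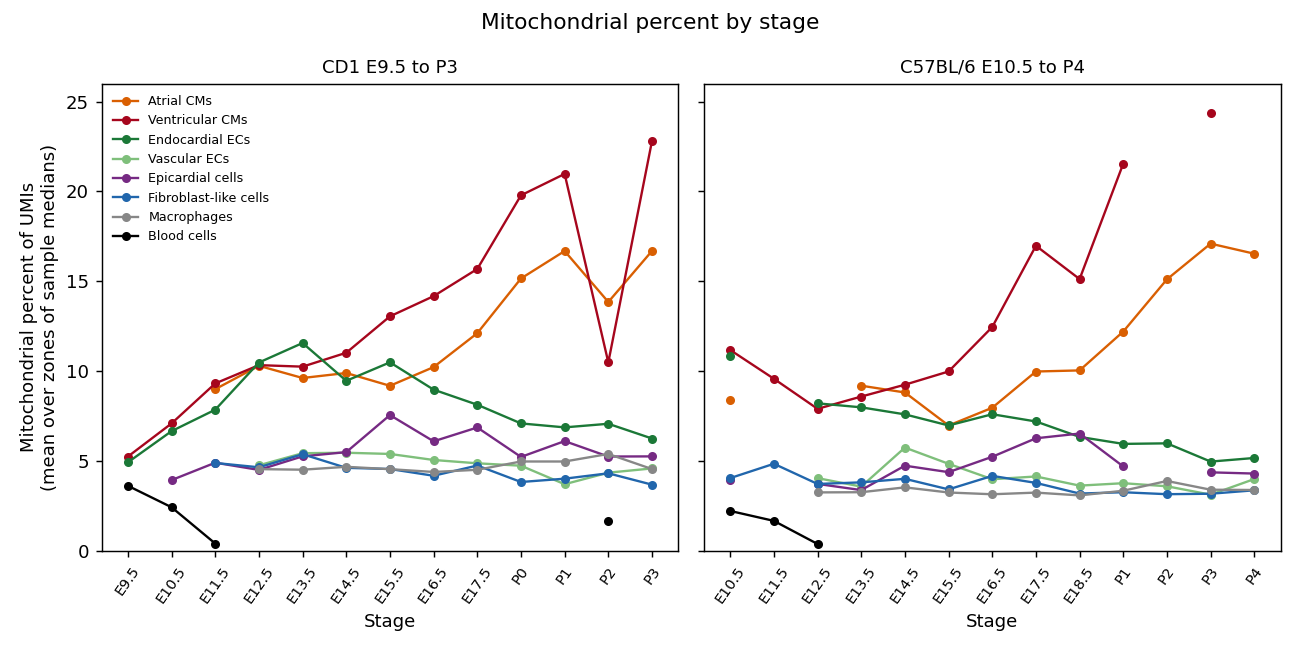
Mean over zones of the sample medians of the mitochondrial percent (y) against stage (x) for 8 types in the CD1 E9.5 to P3 (left) and C57BL/6 E10.5 to P4 (right) experiments. The CM types climb to between 16.54 and 24.3% at the last stages that hold them, while fibroblast-like cells and macrophages stay between 3.095 and 5.40%. The drop of CD1 ventricular CMs at P2 is the value from cells assigned to the LA.

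No non-myocyte type rose past the threshold. Fibroblast-like cells fell with stage in CD1, from 4.90% at E11.5 to 3.69% at P3 (rho = -0.80, permutation adjusted p = 0.0112, n = 11), and in C57BL/6, from 4.06% at E10.5 to 3.38% at P4 (rho = -0.78, permutation adjusted p = 0.00717, n = 13). The CD1 call was lost with the mean over cells in place of the median (rho = -0.53, permutation adjusted p = 0.158) and without the first of the wells loaded for 5k cells (rho = -0.65, permutation adjusted p = 0.0874). Endocardial ECs of C57BL/6 fell from 10.8% at E10.5 to 5.18% at P4 (rho = -0.95, permutation adjusted p = 0.00016, n = 12). The zones behind these values changed, with 2 zones at each stage up to E14.5 and 3 or 4 from E15.5 on. In CD1 endocardial ECs stood at 4.93% at E9.5, 11.6% at E13.5 and 6.26% at P3, with no monotone relation past the threshold (rho = -0.12, permutation adjusted p = 0.696, n = 13). With all CD1 experiments together, where the latest stages came from another experiment, they passed downward (rho = -0.59, permutation adjusted p = 0.0190). The difference between the strains in endocardial ECs had no monotone relation with stage past the threshold over the 10 shared stages (rho = -0.28, permutation adjusted p = 0.823). As CD1 minus C57BL/6 it was lowest at E10.5 (-4.15 points) and highest at E13.5 (3.58 points). A rank correlation cannot detect a rise followed by a fall, so whether the courses differ in shape was not tested. Vascular ECs of CD1 fell (rho = -0.76, permutation adjusted p = 0.0263, n = 10), a call that did not hold on Pearson's r (r = -0.67, permutation adjusted p = 0.0531) nor without the well loaded for 10k cells (rho = -0.28, permutation adjusted p = 0.540). In C57BL/6 the rho of vascular ECs was -0.41 (permutation adjusted p = 0.286, n = 11), and it passed downward with the mean over cells (rho = -0.80, permutation adjusted p = 0.00718), without E13.5 (rho = -0.70, permutation adjusted p = 0.0484) or without 1 of the wells (rho = -0.66, permutation adjusted p = 0.0448). It also passed downward with all C57BL/6 experiments together (rho = -0.76, permutation adjusted p = 0.00286). For epicardial cells rho was 0.42 in CD1 and 0.41 in C57BL/6, and for macrophages 0.48 and 0.32, none past the threshold. In CD1 both of these types passed upward when cells under 4000 UMIs were left out (rho = 0.61 and 0.79, permutation adjusted p = 0.0463 and 0.0130) or when zones were pooled (rho = 0.60 and 0.87, permutation adjusted p = 0.0438 and 0.00585). In all, 2 types rose and 2 fell of 7 tested in CD1, and 2 rose and 2 fell of 8 tested in C57BL/6, by permutation tests of rho adjusted within the experiment.

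The gap between CMs and non-myocytes, blood cells again not counted, widened with stage, a relation tested after the courses were seen. The types behind the non-myocyte mean changed with stage, and at E9.5 in CD1 it was the value of endocardial ECs of the LV alone and at E11.5 in C57BL/6 that of fibroblast-like cells alone. In CD1 the difference stood at 0.377 points at E9.5, 1.83 at E10.5, 5.03 at E15.5, 13.2 at P1 and 14.0 at P3 (rho = 0.98, permutation adjusted p = 4e-05, r = 0.93, permutation adjusted p = 4e-05, n = 13). In C57BL/6 it stood at 0.723 at E10.5, 3.96 at E15.5, 11.2 at P1 and 12.6 at P4, with the highest value of 15.7 at P3 (rho = 0.91, permutation adjusted p = 0.00012, r = 0.92, permutation adjusted p = 4e-05, n = 13). Over the 11 shared stages the gap was 6.61 points in CD1 and 6.55 in C57BL/6, a difference of 0.0577 ± 1.28 (SD, exact sign-flip permutation p = 0.884). With blood cells counted among the non-myocytes, an alternative chosen after the values were seen that also brings in samples holding only blood beside CMs, CMs stood at 5.31% against 4.41% at E9.5 in CD1, and the gap was 6.63 at E10.5 and 6.48 at E11.5 in C57BL/6. It was then above 0 at 13 of 13 stages in each strain (exact permutation p = 0.000244), and its relation with stage gave rho = 0.95 in CD1 (permutation p = 2e-05) and 0.75 in C57BL/6 (permutation p = 0.00502).

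In samples of their own chambers, ventricular CMs had a higher mitochondrial percent than atrial CMs at the stages that held both. Atrial CMs of the LA and RA were compared with ventricular CMs of the LV and RV. The types so came from separately dissociated samples, and the paper reports an added strainer for postnatal ventricles only. Type and sample handling cannot be told apart in this comparison. In CD1 atrial minus ventricular CMs gave -2.84 ± 2.14 points (SD, n = 10 stages), lower at 10 of 10 stages (exact sign-flip permutation p = 0.00195). In C57BL/6 the difference was -5.08 ± 2.77 points (SD, n = 8), lower at 8 of 8 (exact sign-flip permutation p = 0.00781). The pair was nearly level early in CD1, at 9.003 against 9.24% at E11.5 and 10.3 against 10.3% at E12.5. It came apart at E15.5, at 9.19 against 13.1%, and stood at 16.7 against 22.8% at P3. In C57BL/6 the values were 8.82 against 9.25% at E14.5 and 12.2 against 21.6% at P1. The difference was related to stage in CD1 (rho = -0.94, permutation adjusted p = 0.000387, r = -0.94, permutation adjusted p = 6.67e-05, n = 10) and in C57BL/6 (rho = -0.88, exact permutation adjusted p = 0.00724, r = -0.79, exact permutation adjusted p = 0.0180, n = 8), again tested after the courses were seen. At E10.5 in C57BL/6 the difference was already -4.06 points, with the high RV sample in the ventricular value. With all zones pooled, which adds E9.5 with 11 atrial CMs and P2, the CD1 difference was -0.931 points and missed the threshold (exact permutation p = 0.504). The order was the other way at stages where 1 of the types came from the other chamber's samples, with atrial against ventricular CMs at 13.9 against 10.49% at P2 in CD1, 9.20 against 8.59% at E13.5 in C57BL/6, and 15.0 against 12.06% at P2 and 14.6 against 14.48% at P4 in the CD1 P2 to P9 experiment. The 13.9% averaged the LA (10.59%, 14 cells) and the RA (17.11%, 165 cells). Within the LA at P2 the types stood at 10.59 against 10.49% in that course and at 15.10 against 12.45% in the P2 to P9 experiment.

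**Figure D3:**
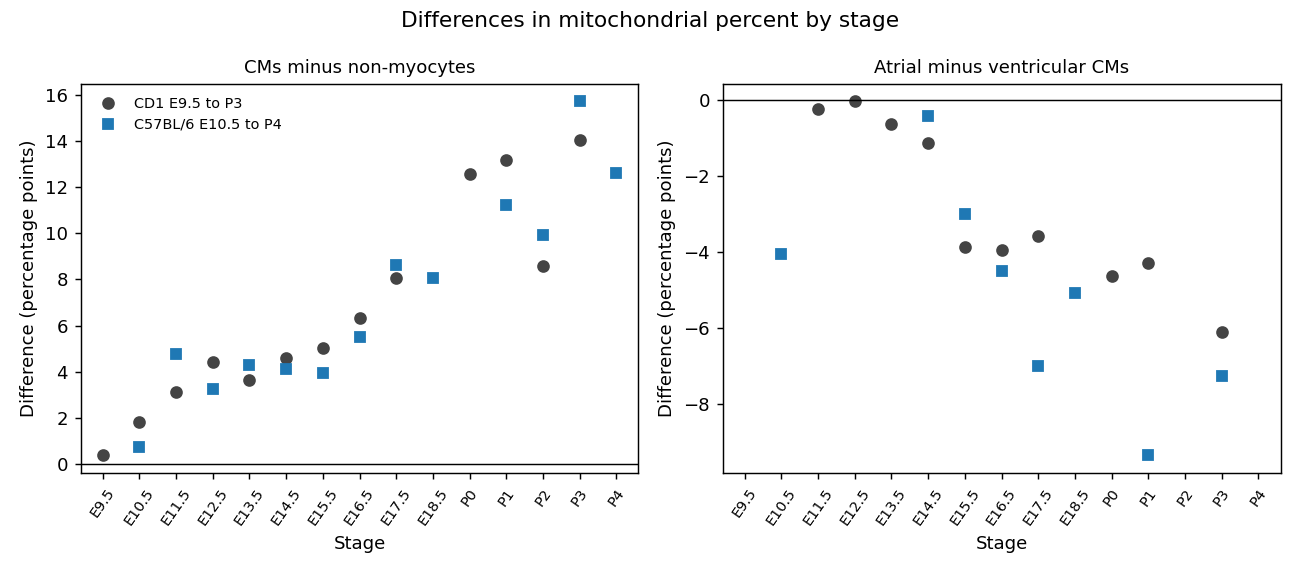
Differences in mitochondrial percent in percentage points (y) by stage (x) in the 2 experiments of 13 stages. On the left, CMs minus non-myocytes, from 0.377 to 15.7 points. On the right, atrial minus ventricular CMs, below 0 at every stage with 10 or more cells of both types in samples of their own chambers.

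The percent has a numerator and a denominator, and the relations of both with stage passed the threshold only in ventricular CMs of CD1. In ventricular CMs of CD1 the median mitochondrial UMIs per cell stayed between 1663 and 1885 from E9.5 to E15.5, while the other UMIs went from 30191 to 11992. From E16.5 on the other UMIs stayed between 11701 and 12672, with P2 left aside, and the mitochondrial UMIs rose from 1989 to 3603 at P3. Over all 13 stages the mitochondrial UMIs rose (rho = 0.65, permutation adjusted p = 0.0358) and the other UMIs fell (rho = -0.69, permutation adjusted p = 0.0358). In atrial CMs of CD1 the other UMIs fell from 21365 at E11.5 to 11634 at P3 (rho = -0.82, permutation adjusted p = 0.0288, n = 11), and the mitochondrial UMIs, between 1469 and 2817, missed the threshold (rho = 0.59, permutation adjusted p = 0.0793). In C57BL/6 ventricular CMs the mitochondrial UMIs went from 1567 at E15.5 to 3732 at E17.5 and 4049 at P1. Over 11 stages these mitochondrial UMIs missed the threshold by rho (0.63, permutation adjusted p = 0.0697) and passed it by r (0.80, permutation adjusted p = 0.0100). The other UMIs of these cells stood at rho = -0.24 (permutation adjusted p = 0.486). In C57BL/6 atrial CMs the other UMIs fell (rho = -0.73, permutation adjusted p = 0.0358, n = 11), and the mitochondrial UMIs missed the threshold (rho = 0.40, permutation adjusted p = 0.257). These 8 relations were chosen after the values were seen, and the stages of an experiment shared their wells and sequencing depth.

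**Figure D4:**
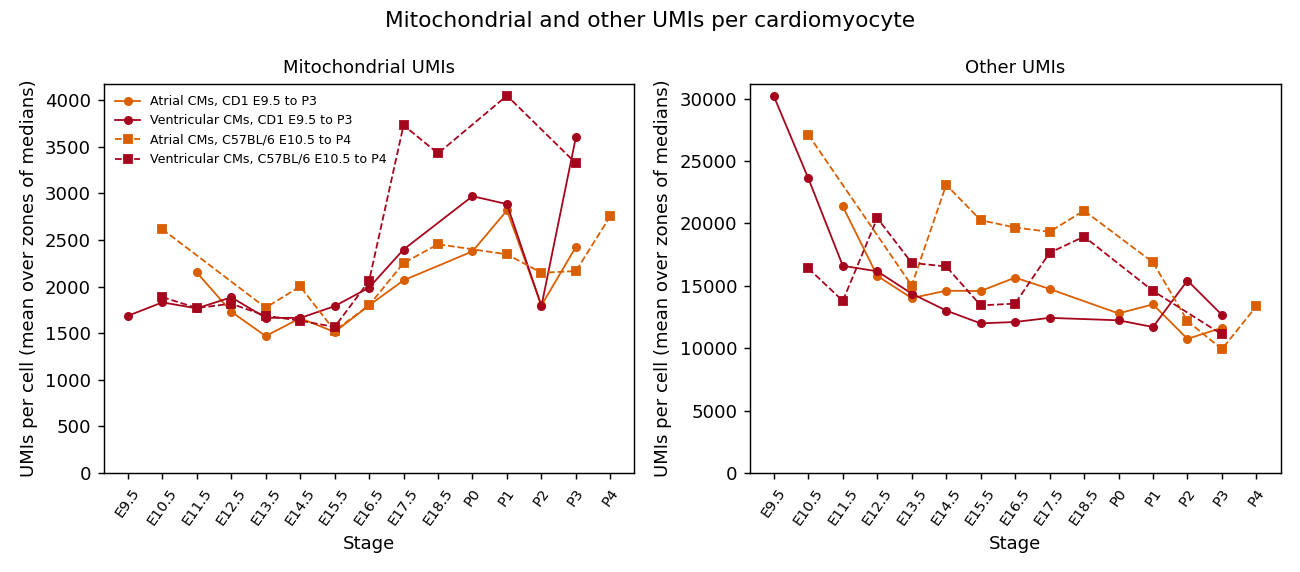
Mitochondrial UMIs (left) and other UMIs (right) per CM, as the mean over zones of sample medians (y) against stage (x). Lines with circles are CD1 and dashed lines with squares C57BL/6. Mitochondrial UMIs of ventricular CMs lie between 1567 and 1888 up to E15.5 and reach 3603 in CD1 and 4049 in C57BL/6 after birth.

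Over all cells of a strain, CMs had more mitochondrial UMIs than any type followed over stages. Over all CD1 cells the median was 2106 mitochondrial and 15178 other UMIs in atrial CMs and 1942 and 16615 in ventricular CMs, against 476 and 12520 in fibroblast-like cells, 554 and 11930 in vascular ECs, 696 and 9163 in endocardial ECs and 385 and 7897 in macrophages. In C57BL/6 the pairs were 2257 and 17131 in atrial CMs, 1841 and 17228 in ventricular CMs, 377 and 9669 in fibroblast-like cells and 296 and 8399 in macrophages. Blood cells had the most other UMIs in CD1, with 618 mitochondrial and 21926 other, and in C57BL/6 they had 222 and 14047. In the tables the highest number of mitochondrial genes detected in any cell was 13, with the genes not named, and 13 were detected in 70.5% of ventricular CMs of CD1 (8281 of 11749 cells, exact 95% binomial interval 69.6 to 71.3%), 32.2% of endocardial ECs (30.4 to 34.1%), 22.1% of fibroblast-like cells (20.7 to 23.5%) and 7.94% of macrophages (6.36 to 9.76%). This share moves with the number of mitochondrial UMIs, and the gene counts needed to thin it to 1 depth were not used here. The intervals cover counting error only.

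Across the cells of 1 sample the percent tended to be lower in cells with more UMIs. In the 13 stages of CD1 the rank correlation with the UMI count was below 0 in 15 of 16 samples of atrial CMs with 50 or more cells (median -0.25), in 18 of 19 of ventricular CMs (median -0.19), in all 12 of endocardial ECs (median -0.44) and in all 13 of fibroblast-like cells (median -0.51). In C57BL/6 it was below 0 in 13 of 14, 12 of 13, 15 of 15 and 27 of 27 samples of these types. The percent and the UMI count share their denominator, so this is a description. Among cells of 5000 to 20000 UMIs alone, the CM difference from non-myocytes and the relations of both CM types with stage stayed past the threshold in both strains by the same permutation tests.

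The limit of 30 percent lay close to the CMs of the newborn heart. Among ventricular CMs of CD1 the share above 25% was 0.720% at E9.5 (5 of 694 cells, exact 95% binomial interval 0.234 to 1.67%), 4.62% at E17.5 (12 of 260, 2.41 to 7.92%), 14.0% at P0 (24 of 171, 9.20 to 20.2%) and 25.9% at P3 (14 of 54, 15.0 to 39.7%). In C57BL/6 it was 7.87% at E13.5 (195 of 2479, 6.84 to 8.997%), 18.7% at P1 (20 of 107, 11.8 to 27.4%) and 35.7% at P3 (10 of 28, 18.6 to 55.9%). Atrial CMs had 8.29% above 25% at P3 in CD1 (16 of 193, 4.81 to 13.1%) and 19.1% at P4 in C57BL/6 (47 of 246, 14.4 to 24.6%). Over all stages of CD1 the share above 25% was 1.09% in endocardial ECs, 0.481% in fibroblast-like cells and 0.194% in macrophages. How many CMs lay above the limit is not analysed here, and few ventricular CMs were held after birth, with none of 10 or more cells in a ventricular sample of C57BL/6 from P5 on.

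Chambers of the same type were compared next. None of the 12 contrasts tested in CD1 and none of the 10 in C57BL/6 (LA against RA, LV against RV and atria against ventricles) passed the exact sign-flip permutation test after adjustment, with a lowest adjusted p of 0.562 and 0.352. Without adjustment 0 and 1 of them had a permutation p under 0.05, and over 6 stages the smallest p this test allows is 0.0312. The 1 contrast was endocardial ECs of C57BL/6, where atria minus ventricles gave -1.101 ± 1.90 points (SD, n = 9, above 0 at 3 of 9 stages, exact permutation p = 0.0469, adjusted p = 0.352). Fibroblast-like cells, with the most stages, differed between LV and RV by -0.0884 ± 0.390 points in CD1 (n = 11) and 0.0512 ± 0.457 in C57BL/6 (n = 11). Atrial CMs differed between LA and RA by -1.01 ± 2.18 points in CD1 (n = 10) and 0.770 ± 1.91 in C57BL/6 (n = 8). Ventricular CMs differed between LV and RV by -0.578 ± 1.46 (n = 10) and -1.39 ± 2.75 (n = 9). Endocardial ECs differed between LA and RA by -0.723 ± 0.904 points in CD1 (n = 8, above 0 at 1 of 8 stages, exact permutation p = 0.0625, adjusted p = 0.562) and -0.591 ± 1.40 in C57BL/6 (above 0 at 2 of 7, exact permutation adjusted p = 0.435). In the smaller experiments, with too few stages for a test, this difference was -0.610 points at E18 and P1 in CD1 (n = 2), -1.12 ± 0.211 from P2 to P9 in CD1 (n = 5) and -0.446 ± 0.123 in C57BL/6 (n = 3), below 0 at every stage.

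Between the strains, 4 of 7 types had a higher percent in CD1 than in C57BL/6 at the stages the 2 experiments of 13 stages shared, and none a lower one. Macrophages differed by 1.31 ± 0.158 points (4.69 against 3.38%, SD, n = 9 stages, higher in CD1 at 9 of 9, exact permutation adjusted p = 0.0137). Fibroblast-like cells differed by 0.768 ± 0.493 (n = 10, 10 of 10, exact permutation adjusted p = 0.0137), epicardial cells by 1.15 ± 0.925 (n = 9, 8 of 9, exact permutation adjusted p = 0.0182) and vascular ECs by 0.755 ± 0.671 (n = 9, 7 of 9, exact permutation adjusted p = 0.0273). The difference was 1.37 ± 1.80 points in atrial CMs (n = 8, 6 of 8, exact permutation adjusted p = 0.0984), 1.27 ± 2.14 in endocardial ECs (n = 10, 9 of 10, exact permutation adjusted p = 0.112) and 0.290 ± 2.22 in ventricular CMs (n = 10, 5 of 10, exact permutation adjusted p = 0.688). In fibroblast-like cells and vascular ECs the sign turned when the mean over cells took the place of the median (-0.0378 and -0.322 points). In epicardial cells it turned when the 79 cells marked for exclusion in C57BL/6 were kept (-0.186 points). Of these 7 types, macrophages alone held their call in every alternative tried.

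Experiments of 1 strain differed as well. At P1 all 12 pairs of 1 zone and type were higher in the CD1 course of 13 stages than in the E18 and P1 experiment, by 0.484 to 6.26 points (median 2.20) or a ratio of 1.15 to 1.89 (median 1.51). LA atrial CMs stood at 15.8 and 10.6%, LV ventricular CMs at 21.0 and 16.1%, LA endocardial ECs at 6.84 and 3.62%, and RA macrophages at 5.54 and 3.61%. At P2, 10 of 12 pairs were higher in that course than in the P2 to P9 experiment, with a median ratio of 1.17. The exceptions were both CM types of the LA, at 10.6 against 15.1% for atrial CMs (14 and 148 cells) and 10.49 against 12.4% for ventricular CMs (26 and 27 cells). In each of these experiments the CMs lay above fibroblast-like cells and endocardial ECs at P1 and P2. Among the wells of 1 pool, the highest well of a type had a median 1.23 to 1.47 times the lowest over 10 types in CD1 and 1.08 to 1.32 times over 11 types in C57BL/6. In each of the 9 wells the lower of the CM types (8.70 to 11.8%) lay above the highest non-myocyte type (6.25 to 9.11%).

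**Figure D5:**
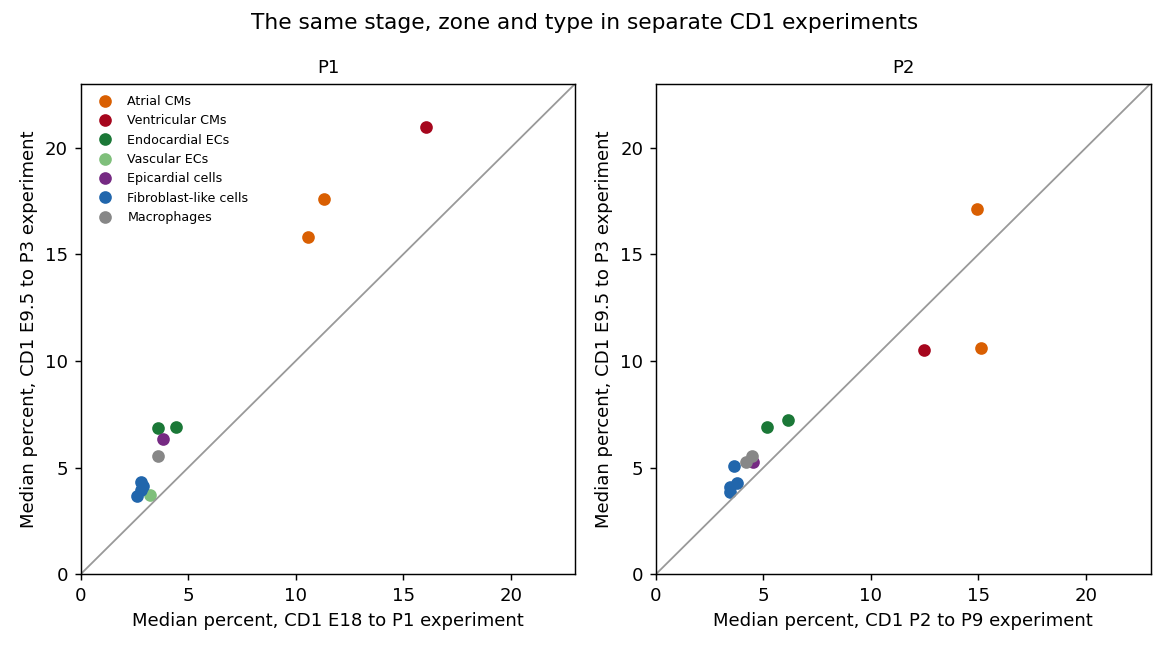
Median mitochondrial percent of the same stage, zone and type in the CD1 E9.5 to P3 experiment (y) against the other CD1 experiment that held the stage (x), at P1 (left, 12 pairs) and P2 (right, 12 pairs). The grey line marks equal values, and all pairs at P1 and 10 at P2 lie above it.

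The CMs of the later postnatal experiments were mostly atrial. In C57BL/6 atrial CMs stood at 17.1% at P5, 18.1% at P7, 18.04% at P8 and 15.54% at P9. The P5 value rested on 10 cells of 1 zone, and the P7 and P8 values averaged atrial with ventricular samples. At P8 atrial CMs stood at 16.54% in the RA, 21.43% in the LV and 16.15% in the RV. In CD1 atrial CMs stood at 15.0% at P2, 14.6% at P4, 14.9% at P5, 18.1% at P7 and 17.2% at P9. Ventricular CMs of CD1, from atrial samples, stood at 12.06% at P2 and 14.48% at P4. Fibroblast-like cells stayed between 2.85 and 3.09% in C57BL/6 and between 3.40 and 3.57% in CD1 over these stages, and endocardial ECs between 2.75 and 4.19% and between 4.64 and 5.67%. With 4 and 5 stages no relation was tested.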

How the data were processed

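Tables with 1 line per cell were used. The authors aligned reads with Cell Ranger 3.1.0 to GRCm38.p4, assigned cells to samples with deMULTIplex, computed the cell metrics with scater, kept single cells with at least 2000 UMIs, 1000 to 8000 genes and at most 30 percent mitochondrial, removed doublets by scds, and annotated types after Seurat and Harmony. The deposited UMI counts (total and mitochondrial) are not normalized. The deposited percent is relative to the cell's total, and it equalled 100 times the mitochondrial sum over the total within 1e-06 in all cells. The deposited doublet score is the scds hybrid score.

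Medians of a type with at least 10 cells in a sample were averaged over zones to 1 value per stage, and the zones with enough cells changed between stages. Cells marked for exclusion (79) were left out. Differences used exact sign-flip permutation tests over stages, and relations with the order of stages were given as Pearson's r beside Spearman's rho, each with 100000 permutations (exact under 10 stages). Tests needed 6 stages, were two-sided at 0.05, and were adjusted (Benjamini-Hochberg) over types, or types and contrasts, within an experiment. Intervals are exact (Clopper-Pearson) at 95%. Every type with enough cells was named and no gene had a value. Alternatives were a minimum of 20 cells, the mean, at most 20 percent, at least 4000 or 5000 to 20000 UMIs, the log2 ratio, pooled zones, excluded cells kept, the top 10 percent of doublet scores left out, other sets of types or experiments, and each stage or well left out. Chamber-matched CMs and blood cells counted among non-myocytes were alternatives added after seeing the data, as were the tests of neighbours, gaps and UMIs. The members and lists were chosen with earlier results of these data known. Of the stages planned for a comparison between CD1 experiments, P3 was in 1 experiment only. Tests were checked on simulated data. Python 3.11.15, numpy 2.4.6, pandas 2.3.3, scipy 1.17.1 and matplotlib 3.10.9 were used. The mutant tables, and genes singly, were not analysed here.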

Additional observations from a re-analysis of the deposited data

Results flagged for a closer look

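Of 47 groups of the 4 zones of a type at 1 stage, 4 held a zone far from the other 3 (its gap to the nearest over the whole range was above Dixon's 95% critical value), where chance gives about 1 in 20 groups. In CD1, fibroblast-like cells of the RV at E14.5 had 4.22% (50 cells, others 4.74 to 4.797%), endocardial ECs of the RA at E18 had 4.34% (135 cells, others 3.95 to 4.01%) and fibroblast-like cells of the LV at P7 had 3.87% (27 cells, others 3.21 to 3.31%). In C57BL/6, fibroblast-like cells of the LV at P5 had 3.82% (14 cells, others 2.61 to 2.73%).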

How the results depend on the processing

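Of 1431 values of 49 results under 14 alternatives and with each of 24 stages or wells left out, 1354 were scored as the same. A test was so scored if it kept its direction and side of the threshold, and a count of types also if it changed little. Types below CMs numbered 5 to 7 in each strain, and types rising and types falling in C57BL/6 each 2 to 3, all scored as the same. The CM difference from non-myocytes, each tested type's difference from CMs and the absence of chamber contrasts past the threshold were the same throughout. So was atrial against ventricular CMs in C57BL/6. In CD1 that difference was -0.931 with zones pooled. The types falling with stage in CD1 numbered 0 with the mean over cells, and 0 to 2 with a stage or well left out: 1 without P0, P1, P2, P3 or the wells loaded for 10k or 25k cells, and 0 without 1 of the wells loaded for 5k. Other alternatives gave up to 3 falling types in CD1. The types rising in CD1 numbered 4, against 2, with at least 4000 UMIs or zones pooled, where epicardial cells and macrophages joined. The types higher in CD1 than C57BL/6 numbered 1 with the mean over cells and 2 to 6 with a stage or well left out, with 2 without 1 C57BL/6 well. The cause was not tested.

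Signs turned as follows. For CD1 minus C57BL/6, fibroblast-like cells (-0.0378), vascular ECs (-0.322) and ventricular CMs (-0.379) with the mean, ventricular CMs with 5000 to 20000 UMIs (-0.551) and on leaving out a stage or well (-0.164 to 1.38), and epicardial cells with excluded cells kept (-0.186). For rho in C57BL/6, macrophages with at least 20 cells (-0.29) or zones pooled (-0.14), epicardial cells with excluded cells kept (-0.27) or all experiments together (-0.15), and pericytes with all experiments (-0.21) or a stage left out (-0.29 to 0.43). For rho in CD1, epicardial cells with all experiments (-0.099) and endocardial ECs on leaving out a stage or well (-0.43 to 0.035). The chamber-matched CMs and blood cells counted among the non-myocytes changed no call. No paired analysis by replicate number was possible because these numbers, given in accession order, name experiments only. Types were paired within samples and stages. Depth limits rare types, with 10 to 20 cells behind many medians.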

Other observations

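Rare immune types had too few cells for a median by sample and are given over all cells of a strain. In CD1, B cells had a median of 5.91% (33 cells), T cells 4.46% (45 cells), dendritic cells 3.83% (17 cells), neutrophils 1.91% (22 cells) and natural killer cells 1.03% (23 cells). The natural killer cells had a median of 62 mitochondrial UMIs and 9 mitochondrial genes detected and a ribosomal protein gene percent of 3.60%. Neutrophils of CD1 had 4.503% ribosomal against 17.8% in the 175 neutrophils of C57BL/6, whose mitochondrial median was 3.30%. The dendritic cells of C57BL/6 had 2.45% (17 cells).

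From E14.5 to E17.5, a window chosen after the values were seen, ventricular CMs of the RV had a higher median than those of the LV at 4 of 4 stages in CD1 (by 1.65 to 2.54 points) and at 4 of 4 in C57BL/6 (by 0.235 to 1.99 points). Over all stages the RV was higher at 5 of 10 and 6 of 9.

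Across the cells of a sample the mitochondrial and the ribosomal percent went in opposite directions in CMs, endocardial ECs and fibroblast-like cells. In the 13 stages of CD1 the rank correlation was below 0 in all 16 samples of atrial CMs (-0.72 to -0.46) and all 19 of ventricular CMs (-0.65 to -0.25), and in C57BL/6 in all 14 and 13. In endocardial ECs it was below 0 in 12 of 12 samples of CD1 and 15 of 15 of C57BL/6 (medians -0.54 and -0.56), and in fibroblast-like cells in 13 of 13 and 25 of 27 (medians -0.43 and -0.39). In macrophages the medians over samples were 0.026 (1 sample) and -0.062 (3 samples). Both percents share the cell's total, so these are descriptions. The stage value of the ribosomal percent in ventricular CMs of CD1 was 15.2% at E9.5 and 6.47% at P3, and 13.4% in the P2 cells assigned to the LA.

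The 79 cells of C57BL/6 that the authors marked for exclusion as epicardial had a median of 14.8% and 3446 UMIs, against 4.21% and 10298 UMIs in the epicardial cells kept.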
